A study of Homo sapiens with 6 samples.

Results

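The nuclear genes of the mitochondrial respiratory chain were taken from the RIP table by their symbols, as protein-coding genes named NDUFA, NDUFB, NDUFC, NDUFS or NDUFV with a number, SDHA to SDHD, UQCR, COX4 to COX8 or ATP5. This gave 88 of the 58302 genes in the table, of which 19847 are protein-coding. By the textbook place of their product, 36 belong to complex I, 4 to complex II, 8 to complex III, 19 to complex IV and 15 to complex V, and 6 are copies, readthroughs or the factor B gene ATP5S. The rule reads symbols and gene types and no measured value, although earlier results of these data were known when it was set.

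The respiratory chain passes electrons from NADH and succinate to oxygen and stores the energy as a proton gradient across the inner mitochondrial membrane. Complex I oxidises NADH, complex II oxidises succinate, complex III passes electrons to cytochrome c, complex IV reduces oxygen, and complex V, the ATP synthase, uses the gradient to make ATP. All but complex II also contain subunits encoded by mitochondrial DNA, and the nuclear genes described here are transcribed and translated outside the organelle.

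The study compared RNA from SW480 and DLD-1 cells, both established human colorectal cancer lines, wild type, untreated and grown in DMEM with fetal bovine serum. For each line there was 1 Input library of total RNA, 1 library of RNA precipitated with an antibody to NAT10 (RIP), the acetyltransferase that makes N4-acetylcytidine (ac4C), and 1 library of fragmented RNA precipitated with an antibody to ac4C (acRIP). The RIP and Input libraries ask which transcripts came down with NAT10, and the acRIP peaks ask where ac4C was called. No line had a replicate of any library, so every difference within a line compares libraries, not conditions, and was not tested. Only the comparison of both RIP libraries with both Inputs was given a test, in which the lines stand in for replicates. Values are FPKM, fragments per kilobase of gene scaled to the library's total, and a ratio is log2((RIP + 1)/(Input + 1)), on which 1 is a 2-fold difference and the change of low genes is understated.

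Depth, read from the steps of the FPKM values, was highest in the RIP library labelled SW480, and the RIP library labelled DLD-1 and the Inputs labelled SW480 and DLD-1 held 0.85, 0.493 and 0.456 of it. The labels of the RIP and Input libraries did not pair. Over 16196 protein-coding genes, the RIP library labelled SW480 had a Pearson correlation of 0.944 with the Input labelled DLD-1 and of 0.871 with that labelled SW480, and the RIP library labelled DLD-1 had 0.951 with the Input labelled SW480 and 0.856 with its own. CDX2, an intestinal transcription factor, was high in the Input labelled SW480, at 33.4 FPKM, and low in the DLD-1 Input, at 7. In the RIP libraries the order was turned, with 4.31 for the label SW480 and 28.3 for DLD-1. All 6 markers of blood, stromal and endothelial cells were below 1 FPKM in each of these libraries. Ratios are therefore given with the Input of the same label and with that of the other label, and the main measure, both RIP libraries against both Inputs, does not depend on the pairing.

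Of the 88 genes, 79 were above 0 in all 4 libraries and 72 had an Input of at least 1 FPKM in both lines, which made them eligible for the comparison. These 72 were 29 genes of complex I, 4 of complex II, 8 of complex III, 14 of complex IV, 15 of complex V and 2 others. The genes listed at 0 in all 4 libraries numbered 5 and were COX4I2, COX6A2, COX7B2, COX8C and the readthrough NDUFC2-KCTD14. The filter read the Inputs alone, so it removed genes that were low in Input and high in RIP as well as silent ones.

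Respiratory chain transcripts were higher in RIP than in Input more often than protein-coding genes at large. All 88 genes together took 0.781% of the summed FPKM in the SW480 RIP library and 0.694% in its DLD-1 counterpart, against 0.413% and 0.491% in the matching Inputs by label. Their own summed FPKM was 3147 and 3268 in RIP against 2206 and 2523 in Input. This is a smaller relative rise, as the FPKM totals of the libraries also differed. Values below keep this order, the label SW480 before DLD-1. With both RIP libraries at least 2-fold above both Inputs, 13 of the 72 genes (18.1%) were higher, against 3.54% of the 10350 protein-coding genes that passed the same filter. In the other direction 1 gene was lower, against 1.08%. The median of the mean ratio was 0.52 for the 72 genes and 0.10 for the protein-coding genes. Limma was run across all 12324 eligible genes, on log2(FPKM + 1) with the lines as replicates. At a Benjamini-Hochberg adjusted p below 0.05, 6 of the 72 genes were higher and 0 lower, against 0.918% and 0.3% of protein-coding genes. At an unadjusted p below 0.05 in this fit, 28 were higher and 2 lower, against 1231 and 536 of the 10350 protein-coding genes. The 6 were ATP5I, NDUFB3, NDUFB9, COX7A2L, SDHD and ATP5J, with adjusted p between 0.0282 and 0.0465 and both RIP values above both Inputs in each. With the line as a block the fit has 1 residual degree of freedom and called 0 of the 72 genes, with a smallest adjusted p of 0.0685. At an unadjusted p below 0.05 it had 16 of them higher and 1 lower, against 410 and 165 of the 10350 protein-coding genes. A further 28 genes had both RIP values above both Inputs by less than 2-fold, 7 had both below, and in 23 the values overlapped. In all, 41 of the 72 genes (56.9%) lay above without overlap, against 30% of protein-coding genes, and 8 below, against 19.4%.

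**Figure D1:**
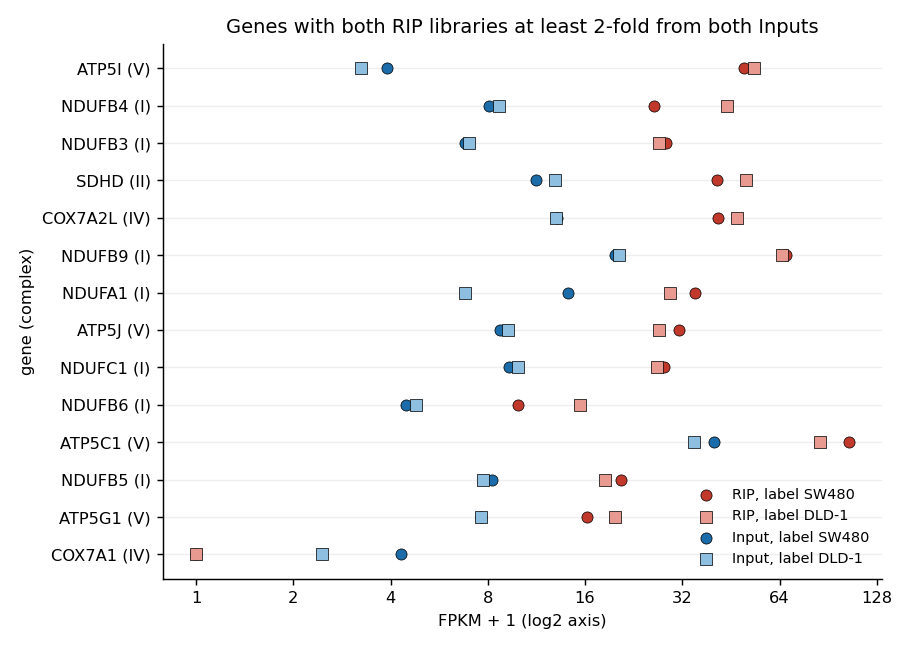
FPKM plus 1 (log2 axis) in each of the 4 libraries for the 14 eligible genes with both RIP libraries at least 2-fold from both Inputs, with the complex in brackets and 1 symbol per library. The RIP symbols stand to the right of both Input symbols in 13 genes, and COX7A1 is at 0 FPKM in both RIP libraries.

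With the Input of the same label, 22 genes were at least 2-fold higher in RIP and 4 lower for SW480, against 17.4% and 9.17% of protein-coding genes, and 21 were higher and 4 lower for DLD-1, against 16.7% and 12.8%. The medians were 0.55 and 0.44. With the Input of the other label, 17 were higher and 5 lower for the RIP library labelled SW480, against 10.1% and 3.93% of protein-coding genes, with a median of 0.41. For that labelled DLD-1, 24 were higher and 3 lower, against 10% and 4.51%, with a median of 0.60. The 5 lower genes for SW480 (6.94%) were thus above their background here, whereas the 4 (5.56%) with the Input of the same label were below theirs. Across the 72 genes both labels' ratios had a Spearman rho of 0.637 with the Inputs as labelled and of 0.898 with them exchanged. The points of each of these correlations share libraries, and genes are not independent.

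**Figure D2:**
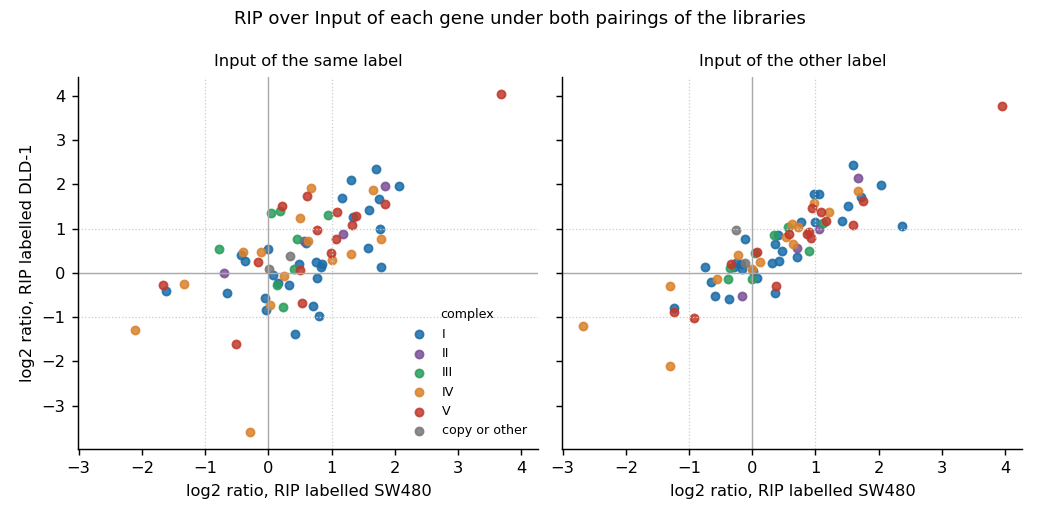
The log2 ratio of RIP over Input for the RIP library labelled SW480 (x) and that labelled DLD-1 (y), with 1 point for each of the 72 eligible genes coloured by complex, using the Input of the same label (left) or of the other label (right). Dotted lines mark 2-fold, and the points lie closer to a line in the right panel, with a rho of 0.898 against 0.637.

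Complex I held 7 of the 13 higher genes, 24.1% of its 29 eligible genes, against 3.54% of protein-coding genes. All 7 encode supernumerary subunits, which surround the catalytic core of the enzyme. NDUFB4 was at 25.2 and 43.0 FPKM in RIP against 7.05 and 7.64 in Input. NDUFB3 was at 27.5 and 26.1 against 5.80 and 5.99, so that its RIP values and its Input values each lay close together and far from each other. NDUFB9 was the most abundant of the 7, at 65.8 and 64.1 against 18.8 and 19.3. Their mean ratios were 2.02, 2.01 and 1.72, with counting standard errors of at most 0.17 in either label.

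NDUFA1, a small membrane subunit encoded on the X chromosome, was at 34.1 and 28.3 FPKM in RIP against 13.1 and 5.80 in Input, and the Inputs differed from each other more than the RIP libraries did. NDUFC1 was at 27.2 and 25.6 against 8.33 and 8.90. Lower in level were NDUFB6, at 8.94 and 14.4 against 3.46 and 3.80, and NDUFB5, at 19.7 and 17.4 against 7.22 and 6.72. In none of these 4 genes did the RIP and Input values overlap. NDUFA1 and NDUFB6 stood just inside the 2-fold limit, each at 1.05 for the lower RIP value over the higher Input, and NDUFA12 just outside it at 0.98.

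The nuclear core subunits of complex I include those that carry its flavin and iron-sulphur clusters, and they were spread around 0. NDUFS1, the large iron-sulphur subunit, was at 17.7 and 14.2 FPKM in RIP and 13.8 and 17.5 in Input, and NDUFS8 at 33.3 and 31.8 against 29.9 and 37.5. In both genes RIP and Input values overlapped. NDUFV1, which binds the flavin, ranged from 44.3 in the first Input to 95.8 in the second, with both RIP values, 78.0 and 48.5, between them.

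Among the other core subunits, NDUFS3 was above both Inputs, at 47.0 and 34.9 FPKM in RIP against 15.0 and 23.2. NDUFV2 was below them, at 4.12 and 8.09 against 14.7 and 11.1, which was the lowest mean ratio in the complex, -1.02. With the Inputs deposited with the acRIP data, scaled, the values of NDUFV2 overlapped and its mean ratio was -0.34. The median mean ratio was -0.01 over the 6 eligible core genes, of which 0 were called, and 0.50 over the 23 supernumerary genes, of which 7 were higher. The difference between both kinds was not tested.

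NDUFS7, the core subunit that holds the last iron-sulphur cluster before quinone, was not eligible. It was at 10.6 and 11.1 FPKM in RIP against 0.731 and 0.970 in Input, and both RIP values lay above both Inputs by 2.55 or more. NDUFA2 was not eligible either, at 28.2 and 33.5 in RIP against 4.59 and 0.737 in Input, the lower of which rests on 8 reads. In the second set of Inputs, deposited with the acRIP data, NDUFS7 was at 2.48 and 3.58 and NDUFA2 at 1.10 and 0.745. These were 2 of the 16 genes that did not pass the filter, of which a further 3 lay above without overlap, NDUFC2, NDUFA9 and NDUFA7, and 11 overlapped.

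Overlapping gene models touch this group. Of the 7 complex I genes that did not pass, NDUFA7, NDUFA9 and NDUFA13 were low in RIP as well as in Input. In RIP, NDUFA7 was at 0.618 and 0.198 FPKM, NDUFA9 at 0.751 and 0.731 and NDUFA13 at 0.463 and 1.43. NDUFA2 had no peak in any list, so sharing could not be read for it. In the other 6 of the 7, at least 1 acRIP peak was listed on shared bases for another gene model as well. For NDUFC2 that model was its readthrough NDUFC2-KCTD14, which is at 0 FPKM in all 4 libraries, and for NDUFS7 it was a gene on the opposite strand. How reads in shared exons were counted is not given in the sources used here, so these levels are uncertain, and the part of the shared exons in the ratios was not tested.

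**Figure D3:**
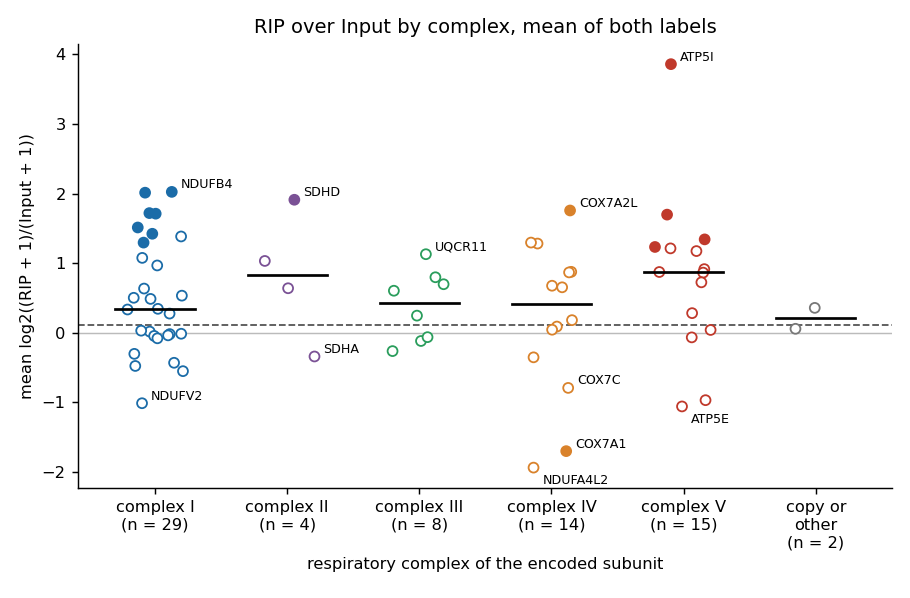
Mean of both labels' log2 ratio of RIP over Input for the 72 eligible genes by complex, with 1 circle per gene, black bars at the median of each complex and a dashed line at the median of 10350 protein-coding genes. Filled circles mark the 13 genes higher and the 1 gene lower in both RIP libraries against both Inputs, and complexes II and V have the highest medians, 0.83 and 0.87.

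Complex II has 4 subunits, all of them nuclear. SDHD, a membrane anchor that binds quinone, was at 39.9 and 49.4 FPKM in RIP against 10.3 and 11.9 in Input, and it was the 1 member called higher. SDHC, the other anchor, was at 8.93 and 7.74 against 3.37 and 3.76, above both Inputs by 0.88 or more. SDHB, the iron-sulphur subunit, was the most abundant, at 95.3 and 95.6 against 64.3 and 57.8, also without overlap. SDHA, the flavoprotein that oxidises succinate, was at 33.4 and 37.9 against 54.7 and 37.6, so that its RIP and Input values overlapped. The order of the mean ratios was SDHD, SDHC, SDHB and SDHA, at 1.91, 1.03, 0.64 and -0.34.

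No gene of complex III was called, although 5 of its 8 lay above both Inputs, against 30% of protein-coding genes. UQCR11 had the highest mean ratio, 1.13, at 4.69 and 5.52 FPKM in RIP against 1.96 and 1.62 in Input, and its Inputs rest on 38 and 29 reads. UQCRH, the hinge protein, was at 96.2 and 128 against 70.3 and 75.6. UQCRFS1, the Rieske iron-sulphur protein, was at 25 and 25.8 against 18.6 and 24.4, a separation of 0.04 at its narrowest. The core proteins UQCRC1 and UQCRC2 overlapped. UQCRC1 was at 110 and 84.5 in RIP and 93.4 and 144 in Input, and UQCRC2 at 38.2 and 71.7 against 66.3 and 49.0.

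In complex IV 14 of 19 genes were eligible, of which COX7A2L was higher and COX7A1 lower. Each makes up 7.14% of the 14, against 3.54% higher and 1.08% lower among protein-coding genes. COX7A2L, which takes part in joining complexes III and IV into supercomplexes, was at 40.2 and 46.2 FPKM in RIP against 12.1 and 12 in Input, with a mean ratio of 1.76. Its ubiquitous paralog COX7A2 was at 53.7 and 87.4 against 33.2 and 22.5, above both Inputs by 0.68 or more. COX7A1, the heart and skeletal muscle isoform, had 0 reads in both RIP libraries and 3.32 and 1.46 FPKM, or 37 and 15 reads, in the Inputs. Against a floor of 3 counts per library, it was at least 9.33-fold lower in RIP than in the lower of these Inputs. In the acRIP table its Inputs were at 0.542 and 1.38, and with these, scaled, the narrowest ratio was -0.85 and the gene was no longer called.

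The order of the COX7A paralogs in RIP was thus COX7A2, COX7A2L and COX7A1, with COX7A2 and COX7A2L well apart from COX7A1 in every library. For COX4, COX6A and COX8, reads were found on the ubiquitous gene and not on the tissue isoform. COX4I1 was at 37.3 and 48.1 FPKM in RIP and 40.6 and 34.2 in Input, with COX4I2, the lung isoform, at 0. COX6A1 was at 18.3 and 26.9 against 12.7 and 10.7, with the muscle isoform COX6A2 at 0. COX8A was at 53.5 and 47.4 against 52.5 and 79.6, with COX8C at 0.

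COX6B1 was at 123 and 140 FPKM in RIP against 79.1 and 84.6 in Input, the highest RIP values in complex IV and without overlap, whereas the testis isoform COX6B2 stayed at or below 1.64 in all 4 libraries. COX7C, the most abundant complex IV gene in Input, ran the other way, at 57.5 and 119 in RIP against 146 and 143. COX5B was at 109 and 94.8 against 30.9 and 55.1, above both Inputs by 0.77 or more.

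NDUFA4, now placed in complex IV, and its hypoxia-inducible paralog NDUFA4L2 lay on opposite sides of 0. NDUFA4 was at 39.8 and 34.5 FPKM in RIP against 15.5 and 25.4 in Input. NDUFA4L2 was at 3.46 and 1.36 in RIP against 4.45 and 27.5 in Input, the second of which is the DLD-1 library. Both RIP values of NDUFA4L2 were below both Inputs, by 0.29 at the narrowest, and its mean ratio of -1.94 was the lowest of the 72 genes, at 0.174% of the ranked protein-coding genes. With the Inputs of the acRIP table, scaled, its RIP and Input values overlapped, at 0.88 for SW480 and -2.75 for DLD-1. Its mean ratio was then -0.94, and COX7C was lower, at -1.97.

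In complex V 11 of the 15 genes lay above both Inputs, 4 of them called, against 30% and 3.54% of protein-coding genes. ATP5I, subunit e of the membrane sector, had the highest ratio of the 72 genes, at 48.9 and 52.4 FPKM in RIP against 2.90 and 2.24 in Input. The mean ratio was 3.86, and 99.99% of the ranked protein-coding genes were at or below it. Those Inputs rest on 21 and 15 reads, and in the acRIP table ATP5I was at 24.9 and 16.9. With the Inputs of that table, scaled to the RIP table, the mean ratio was 0.70 and the gene was no longer called, so the size of this difference is set by which Inputs are used.

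ATP5J, coupling factor 6 of the peripheral stalk, was at 30.2 and 26.1 FPKM in RIP against 7.72 and 8.23. ATP5C1, the gamma subunit that turns in the catalytic head, was at 104 and 84.3 against 39.2 and 33.9. The catalytic beta subunit ATP5B was the most abundant member in each of the 4 RIP and Input columns of the RIP table, at 388 and 352 in RIP against 185 and 208, above both Inputs by 0.76 or more. Its partner ATP5A1 was at 44.3 and 70.7 against 37.8 and 24.0. The remaining head subunits ran lower in RIP, with ATP5D at 24.9 and 39.3 against 81.0 and 47.9 and ATP5E at 32.5 and 24.7 against 46.7 and 77.7, both without overlap. With the acRIP-table Inputs, scaled, the values of ATP5D and ATP5E overlapped, with mean ratios of -0.66 and -0.34.

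ATP5G1, ATP5G2 and ATP5G3 encode the same mature c subunit of the rotor ring with different leader peptides. ATP5G1 was at 15.2 and 18.8 FPKM in RIP against 6.61 and 6.63 in Input and was called higher. ATP5G3 was at 12 and 18.3 against 7.53 and 4.80, above both Inputs by 0.61 or more. ATP5G2 was the most abundant of the 3 in each library, at 65.5 and 64.6 against 46.0 and 62.0. Its mean ratio was 0.28, against 1.23 for ATP5G1 and 1.17 for ATP5G3, so the 2 rarer genes had the higher ratios.

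A lower level went with a higher ratio across the whole set. The Spearman rho of the mean ratio with the mean Input level was -0.418 over the 72 genes and -0.102 over the 10350 protein-coding genes, where the Input stands on both sides of the relation. Among the 50 genes with an Input of at least 10 FPKM in both lines, 4 were called higher (8%) and 0 lower, against 2.88% and 0.816% of protein-coding genes at that level.

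Length also moved with the ratio. The reads behind each FPKM value give the relative length over which a gene was counted, and 36 of the 71 eligible members with such a length were in the shortest 10% of protein-coding genes. In that shortest 10%, 9.13% of protein-coding genes were higher in both RIP libraries, against 10 of the 36 respiratory chain genes. Outside it the share was 2.93%, against 3 of 35 respiratory chain genes, which were ATP5G1, COX7A2L and NDUFB5. The median mean ratio of those 35 was 0.28, against 0.09 for the protein-coding genes outside the shortest 10%. The part of length in the result was not tested beyond these values.

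**Figure D4:**
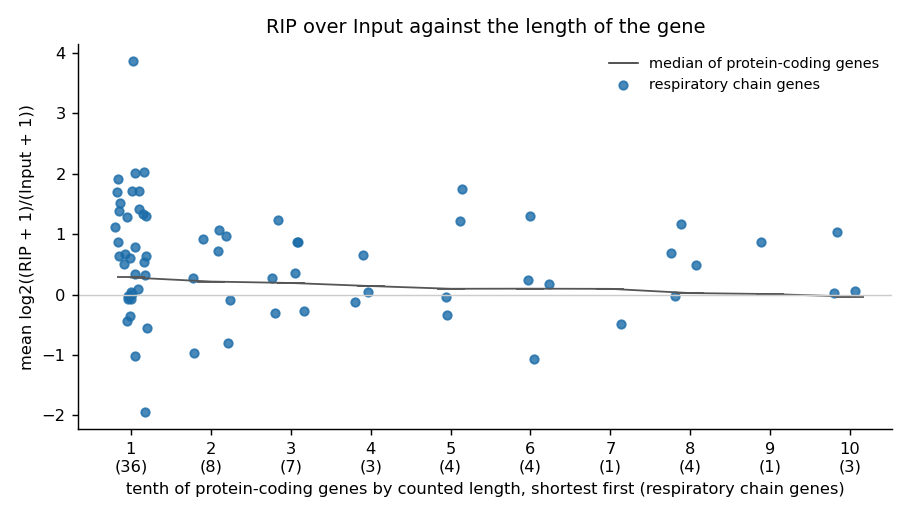
Mean of both labels' log2 ratio of RIP over Input for 71 respiratory chain genes (points) against the length class of the gene, from the shortest 10% (1) to the longest 10% (10) of protein-coding genes, with the number of respiratory chain genes in brackets and a line at the median of the protein-coding genes. The line falls from 0.28 in class 1 to -0.03 in class 10, and 36 points lie in class 1.

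Some reads were counted on copies of these genes, and whether they came from the parent genes was not tested. The table held 156 pseudogenes named after 44 of the 88 genes, of which 46 were above 0 in any of the 4 libraries. They summed to 26.6 and 39.9 FPKM in the RIP libraries and to 59.1 and 58.2 in the Inputs. This equals 0.846% and 1.22% of the level of the 88 genes in RIP and 2.68% and 2.31% in Input. How reads that match several places were counted is not given in the sources used here, and genes with near-identical copies, such as UQCRH with the intronless UQCRHL, are uncertain. UQCRHL was at 2.01 and 3.68 FPKM in RIP against 1.38 and 2.62 in Input.

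The proteins that build the complexes were read from a list of 47 assembly factors, with 48 entries because SCO2 has 2, of which 41 were eligible. Both RIP libraries were at least 2-fold above both Inputs in 3 of them (7.32%, against the 3.54% of protein-coding genes) and below in 0, and the median mean ratio was 0.45, against 0.10. The 3 were SDHAF1, COA3 and COX20. SDHAF1, which helps to insert the iron-sulphur clusters of SDHB, was at 13.5 and 11.3 FPKM in RIP against 3.61 and 3.32. COA3, an early factor for COX1, was at 15.8 and 14.4 against 2.99 and 4.96. COX20, a chaperone of COX2, was at 22.1 and 10.9 against 1.56 and 1.04, and its Inputs in the acRIP table were higher, at 5.75 and 11.1. Of the 14 factors for complex I, 0 were called and 9 lay above both Inputs, against 3.54% and 30% of protein-coding genes.

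Of 6 respiratory genes that the symbol rule misses, USMG5, a small membrane subunit of ATP synthase, was called higher, at 58.5 and 59.8 FPKM in RIP against 9.45 and 11.6. CYCS, the electron carrier cytochrome c, was at 58.0 and 44.6 against 22.8 and 27.3, and CYC1, which holds the heme c of complex III, overlapped at 69.0 and 63.6 against 68.6 and 75.3. The 13 subunits encoded in mitochondria ran lower in RIP, with a median of -0.58. Of them 9 were below both Inputs and 3 above, against 19.4% and 30% of protein-coding genes. At 2-fold, 2 were called lower and 0 higher, against 1.08% and 3.54%.

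The levels of these genes were also compared between the cell lines. Among the Inputs deposited with RIP, 3 of the 72 genes were at least 2-fold higher in the Input labelled DLD-1, against 8.95% of protein-coding genes, and 1 was higher in that labelled SW480, against 6.66%. The genes higher in DLD-1 were NDUFA4L2, NDUFV1 and NDUFB2, and that higher in SW480 was NDUFA1. The Inputs of the acRIP table are read here as FPKM. They belong to the same Input sample of each line, so they are not independent of the Inputs deposited with RIP. They held NDUFA4L2 at 0.971 in SW480 and 9.75 in DLD-1, NDUFV1 at 15.6 and 28.0, NDUFB2 at 4.78 and 10.9 and NDUFA1 at 15.8 and 4.10. All 4 differences ran the same way in both tables, and for NDUFV1 that in the acRIP table was 0.80, below 2-fold. Over all 72 genes, 6 were there at least 2-fold higher in DLD-1 (8.33%, against 8.46%) and 2 in SW480 (2.78%, against 7.88%), so the share higher in DLD-1 was near the background. By label, the RIP values ran the other way from the Inputs for NDUFA4L2, NDUFV1 and NDUFB2 and the same way for NDUFA1.

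The Inputs of both tables were within 2-fold of each other, after scaling, for 64 of the 72 genes in SW480 and 66 in DLD-1. With the acRIP-table Inputs, 17 of the 72 genes were higher in both RIP libraries, against 3.64% of protein-coding genes, and they included 9 of the 13 named above. NDUFA1, NDUFB6, ATP5I and ATP5J were not among them. Added were NDUFA3, NDUFA12, NDUFS3, SDHB, UQCR11, COX5B, COX7A2 and ATP5J2. The 1 lower gene was then NDUFS5 in place of COX7A1, against 1.23%, with a narrowest ratio of -1.27.

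Promoters were read from RefSeq, 250 bases before to 50 after the annotated start on GRCh38.p14, and matched for 67 of the 88 genes, with the first window listed for each gene. Motifs were searched on both strands. NRF1 is a transcription factor known for binding promoters of respiratory genes, and its core, the palindrome CGCATGCG, was in 10 of the 67 promoters (14.9%), against 2.88% of 15843 protein-coding genes. An ETS motif, CCGGAAGT, was in 9 (13.4%, against 6.19%), and a YY1 motif, AAGATGGCG, in 8 (11.9%, against 2.74%). At least 1 of these stood in 24 promoters (35.8%, against 11%). A match is a description of the letters and not evidence of binding.

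Genes with the core were found on both sides of the 2-fold limit. Of the 13 genes higher in RIP, 11 had a window, of which NDUFB4, SDHD, ATP5I, ATP5J and ATP5C1 held the core and 6 did not. The 5 other genes with it were the ineligible NDUFS7 and NDUFA8, NDUFS6, ATP5G2 and COX6A1, with mean ratios of 0.01, 0.53, 0.28 and 0.87 for the last 4. For 6 of the 10, 28 bases of the gene's strand are shown 5′ to 3′ with the core in capitals, to show the motif in the genes described above. Each core stands before the annotated start around which its window was taken. For ATP5J, RefSeq places the outermost start of the gene further upstream still, at base 25735653, so that the core lies within the gene.
NDUFB4, chr3:120596168-120596195, plus strand: gagcacttcgCGCATGCGcatatcaccg
SDHD, chr11:112086754-112086781, plus strand: gctgtgtttgCGCATGCGcgacgggtgt
ATP5I, chr4:674336-674363, minus strand: ccgctgacggCGCATGCGtgcgcccagc
ATP5J, chr21:25735156-25735183, minus strand: actcaaagagCGCATGCGtacagagcaa
ATP5C1, chr10:7788146-7788173, plus strand: ggagcttcggCGCATGCGcgctgaggcc
NDUFS7, chr19:1383823-1383850, plus strand: ttccggtttcCGCATGCGctccgagccg

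Most of these genes carried ac4C peaks. Of the 88 genes, 64 had a peak in the SW480 list, 66 in the DLD-1 list and 62 in both, which is 96.9% of the first and 93.9% of the second. Among the 72 eligible genes 58 had a peak in SW480 (80.6%), 59 in DLD-1 (81.9%) and 56 in both (77.8%), against 51.1%, 56.8% and 40.3% of the eligible protein-coding genes. Level matters for such shares, and at an Input of at least 10 FPKM in both lines 41 of 50 genes (82.0%) had a peak in both lists, against 58.8%. In 59 of the 62 genes a peak of each list shared at least 1 base on the same strand, and in 50 at least 50% of each peak was shared.

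Peaks of these genes had high folds, the authors' enrichment of acRIP over Input. The median was 43.8 over 88 peaks in SW480, against 19.8 for all peaks on protein-coding genes, and 30.3 over 106 peaks in DLD-1, against 14.7. In both lists at once, 50 of the 62 genes had a highest fold above these medians of single peaks on protein-coding genes. A gene with several peaks passes more easily, and the share of other genes that pass is not given here. The folds of both lists were related only in part, with a Spearman rho of 0.457 over the 62 genes. NDUFS5, a subunit whose RIP values were below both Inputs, ranked first by the smaller of both folds, at 442 in SW480 and 369 in DLD-1.

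**Figure D5:**
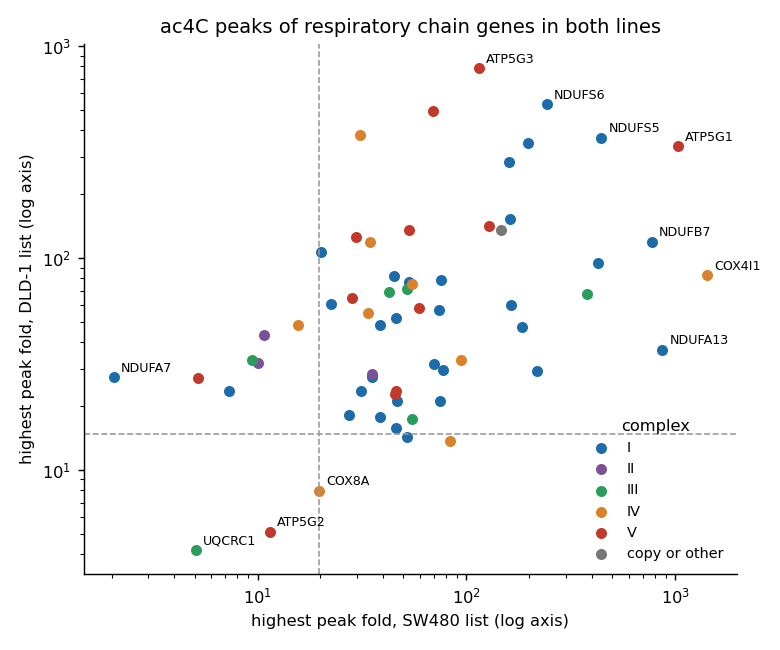
Highest ac4C peak fold of each gene in the SW480 list (x, log axis) and in the DLD-1 list (y, log axis) for the 62 genes with a peak in both, coloured by complex, with dashed lines at the median fold of peaks on protein-coding genes, 19.8 and 14.7. Of the 62 points 50 lie above both lines, and COX4I1 has the highest fold in SW480, 1420.

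Of the next genes by the smaller of both folds, ATP5G1 was at 1030 and 336, NDUFS6 at 242 and 532, and NDUFC2 at 198 and 348. NDUFA9 was at 160 and 282 and NDUFS3 at 161 and 153, followed by NDUFC2-KCTD14, ATP5J, NDUFB7 and ATP5G3. High folds thus also occurred on genes with few counted reads, since NDUFC2 had at most 2.47 FPKM in any of the 4 libraries and NDUFC2-KCTD14 had none. These genes overlap, and a peak of the one in each list shares bases with a peak of the other. A peak shared with another host gene was found for 12 of the 88 peaks in SW480 and for 15 of the 106 in DLD-1.

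A smaller share of these peaks was annotated to 3′ untranslated regions than of peaks on protein-coding genes at large. Each peak carries a single class, also where it is split over several exons, so the class does not place the whole peak. In SW480, 27 of the 88 peaks were annotated to 3′ untranslated regions, 31 to coding sequence, 28 to exons of no stated kind and 2 to 5′ untranslated regions. Of the peaks on all protein-coding genes, 56.3% were annotated to 3′ untranslated regions and 25.8% to coding sequence. Exons of no stated kind held 16.6% of them and 5′ untranslated regions 1.17%. In DLD-1 the counts were 27, 44, 31 and 4 of 106, against 43.2%, 40.0%, 15.0% and 1.61%. Coding sequence was thus near its background in DLD-1. The share in exons of no stated kind was above its background in both lists, and the region of those peaks is not known. The median peak length was 269 bases in SW480 and 301 in DLD-1, against 210 and 211 for protein-coding hosts, and 52 and 69 peaks were split over exons.

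By complex, peaks in both lists were found for 31 of 36 genes of complex I, 3 of 4 of complex II, 6 of 8 of complex III, 9 of 19 of complex IV and 12 of 15 of complex V. The share was 40.3% of the eligible protein-coding genes, whereas these counts include genes that were not eligible. In complex IV the 9 were all among its 14 eligible genes, and COX4I2, COX6A2, COX7B2 and COX8C were at 0 FPKM. Of the 13 genes higher in RIP, 12 had a peak in both lists and ATP5I had none in any list. Among the 23 genes with overlapping RIP and Input values, 18 had a peak in both. Besides ATP5I, the eligible genes above 10 FPKM in both RIP libraries without a peak in any list were NDUFA12, UQCRB, COX5B, COX7A2 and ATP5J2. The 3 c-subunit genes differed, with highest folds of 1030 and 336 for ATP5G1, 115 and 786 for ATP5G3 and 11.5 and 5.11 for the more abundant ATP5G2.

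The lists also give sites of a pattern of 12 bases in which a C is followed by any 2 bases 4 times over. At least 1 site was listed in 53 of the 88 peaks in SW480 (60.2%) and in 59 of the 106 in DLD-1 (55.7%), against 56.2% and 54.8% of the peaks on protein-coding genes. In both lists at once, 37 of the 62 genes had a listed site. NDUFB7, which sits on the intermembrane side of complex I, had a single peak over 3 blocks at chr19:14566107-14572062 with 9 sites and folds of 774 and 119. Its RIP values were 58.9 and 54.4 FPKM against 34.4 and 45.8 in Input.

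Within the RefSeq windows around gene starts lay 5 listed sites that could be printed, and all 5 held the pattern. They show what the lists call a site, printed 5′ to 3′ on the gene's strand with the 12 bases in capitals.
NDUFB7, chr19:14572017-14572045, minus strand: ctaggtgacCCTCGGCTGCTGcagggatc
UQCR10, chr22:29767394-29767418, plus strand: gaaacatggCGGCCGCGACGTtgac
NDUFS3, chr11:47579087-47579116, plus strand: gtaacatggCGGCGGCGGCGGtagccaggc
NDUFS3, chr11:47579053-47579082, plus strand: ctgtctttcCGTCCGCTGCCTagtctgcat
NDUFB10, chr16:1959512-1959541, plus strand: agacgcagcCGCCCTCGGCGTcctctgtag

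The sites of NDUFB7 and UQCR10 were in peaks of both lists. Those of NDUFS3 were in a peak of the DLD-1 list with a fold of 57.6, which began upstream of the gene and was also listed for PTPMT1. That of NDUFB10 was in a peak of the SW480 list with a fold of 9.37. The second site shown for NDUFS3 and that of NDUFB10 begin before the annotated start of the gene, 12 and 17 bases upstream. UQCR10, a small subunit of complex III, was at 35.0 and 63.9 FPKM in RIP against 30.7 and 23.5 in Input.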

How the data were processed

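Per the labels, total RNA of SW480 and DLD-1 cells was immunoprecipitated with kits for RIP and ac4C. The authors deposited FPKM values per gene for RIP and Input, FPKM-like Input values with the acRIP data, and 3 peak lists with a p-value, a fold (a ratio of acRIP to Input), scores (log10-scaled significance of each peak) and counts of motif sites per peak. The submitters' processing notes name cutadapt 2.5 and HISAT2 2.1.0. The counting tool, the use of strand and the peak caller are not given in the sources used here. The paper's account of RIP mentions an IgG group, whereas the deposited table names Input. The authors' own RIP/Input ratios were not used.

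Ratios used a pseudocount of 1 and an Input of at least 1 FPKM in both lines, with calls at 2-fold. Whole reads were recovered for 99.9% of 23515 genes (tolerance 0.005 reads). They are the smallest that give the values, and errors and floors from them cover counting error only. The depth of the acRIP libraries is unknown. Peak starts were moved by 1 base to count from 1, on GRCh38. Named genes were the 5 highest and 5 lowest mean ratios, the called genes, the extremes of level in each complex, isoforms, core subunits and the peaks in both lists, up to 10 by the smaller fold. The values of 1 member are not reported here. The members and lists were chosen with earlier results of these data known. Computing used Python 3.11.15 with pandas 2.3.3, NumPy 2.4.6 and SciPy 1.17.1 and R 4.3.3 with limma 3.58.1 (trended variance), and was tested on simulated data. The alternatives changed the pseudocount, filter, centring, fold limit, Inputs and peak limits.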

Additional observations from a re-analysis of the deposited data

Results flagged for a closer look

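For 4 genes the ratios of both labels had opposite signs, each by at least 0.5 on the log2 scale. With 1 library per group, the difference between the lines was not tested. Of the 72 eligible genes, 20 had opposite signs of any size as labelled and 15 with the Input of the other label. The share of protein-coding genes with such signs is not given here. Since the RIP and Input labels did not pair, a sign by label need not be that of a line. NDUFV1 was at 0.80 with the label SW480 and -0.97 with the label DLD-1, and NDUFB11, a supernumerary subunit of complex I, at 0.71 and -0.76. ATP5J2, subunit f of ATP synthase, was at 0.54 and -0.68. UQCRC2 ran the other way, at -0.78 and 0.54. With the Input of the other label the signs of both labels turned over in NDUFV1, NDUFB11 and ATP5J2, and UQCRC2 alone kept its directions, with all values between -0.35 and 0.22.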

How the results depend on the processing

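Pairing RIP and Input by line as a replicate block in limma, added after seeing the data, took the genes higher from 6 to 0, with 0 lower. The crossed pairing, also added after seeing the data, gave 37 higher and 8 lower of 72. That fit has 1 residual degree of freedom and called 2739 higher and 1538 lower of the 10350 protein-coding genes. Of the values for the set, 26 moved with a setting. These were counts, which have no direction, except a median of 0.28 given below, which stayed above 0. A pseudocount of 5 gave 2 genes lower for the label DLD-1 and 0 in both RIP libraries. An Input of at least 10 FPKM left 50 genes, of which 11 and 9 were higher by label and 1 lower for DLD-1, and 4 higher and 0 lower in both. At 1.5-fold, 35 were higher and 7 lower for SW480, 10 lower for DLD-1 and 22 higher in both. At 3-fold, 11 and 10 were higher by label, 2 lower for DLD-1, and 6 higher and 0 lower in both. Between Inputs, the genes higher in SW480 numbered 2 with a pseudocount of 0.1 and 0 with one of 5, and the acRIP table gave 6 higher in DLD-1 and 2 in SW480 (8.33% and 2.78%). Added after seeing the data, the acRIP-table Inputs of the other label gave 2 lower for DLD-1, and leaving out the shortest 10% of genes left 3 higher of 35, with a median of 0.28. The other 84 values for the set stayed near the reported ones, peak counts included. For single genes 298 values moved beyond counting error and 404 did not. Within a line there is 1 library per group, and no spread between samples is known.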
